A study of Mus musculus with 23 samples.

Results

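The genes described here are 10 textbook markers of epithelial and mesenchymal cell identity, followed across mouse prostate tumours grown from the TC2Ras line. They were taken as the rows of the deposited gene table whose Ensembl identifier carries the symbol Krt8, Krt18, Epcam, Cdh1, Cdh2, Vim, Zeb1, Snai1, Snai2 or Twist1, which gave 10 of 55401 rows. All 10 passed the filter on low counts, although Krt18, Epcam and Cdh1 were at or near 0 in most libraries. Messenger RNA was measured in 23 bulk libraries, with total counts from 47641781 to 83088346.

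TC2Ras cells are TRAMP-C2 mouse prostate adenocarcinoma cells transduced with a lentivirus that expresses an activated H-ras, and every group carried tumours of this 1 line. The hosts were male C57/BL6 mice aged 8 to 10 weeks with tumours under the skin of the flank. A plasmid, 10 µg per muscle, was delivered to a leg muscle by ultrasound with microbubbles. It was either a control plasmid (EV, empty vector, 12 libraries) or one that encodes IL-27 fused to a short peptide (IL27v, 11 libraries). Tumour material was then exposed ex vivo to media, cabozantinib (a kinase inhibitor), docetaxel (a taxane), anti-PD-L1, cabozantinib plus IL-27, or IL-27, which made 12 groups of 2 libraries, except that IL27v with ex vivo IL-27 had 1. The 3 ex vivo IL-27 samples carry 1 repeated name in part of their labels and were matched to their columns by title and library name, so their identity is less sure than that of the others. Doses and exposure times are not given in the labels. Nothing in the labels assigns replicates to separate animals, so the p-values rest on a spread between samples that may be technical only. A bulk library mixes tumour and host cells, and fewer cells of a type cannot be told apart from less RNA per cell.

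Epithelial cells are held together by E-cadherin (Cdh1) and EpCAM and carry a keratin cytoskeleton in which keratin 8 (Krt8) pairs with keratin 18 (Krt18). Mesenchymal cells use N-cadherin (Cdh2) and the intermediate filament vimentin (Vim). The transcription factors Zeb1, Snai1 (Snail), Snai2 (Slug) and Twist1 can drive cells from the first state to the second, and Snail and Zeb proteins repress epithelial genes through E-box motifs in their promoters. Fibroblasts, endothelial cells and macrophages of the host also express vimentin, and fibroblasts express several of these factors.

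The E-box letters searched were CACCTG and CAGGTG, which are the same motif on the 2 strands, in RefSeq promoter windows (build GRCm38.p6) of 300 bases, from 250 before to 50 after the annotated start. A window was found for 6 of the 10 genes, and 4 of these held the motif, against 20.2% of all 32851 windows. The holders were Krt8, Krt18, Epcam and Snai1. Vim and Twist1 had windows without it, and Cdh1, Cdh2, Zeb1 and Snai2 had no window in the table. Krt8, whose stretch is not shown, held the motif 1 time, beginning 111 bases before the RefSeq start. By the Krt8 gene coordinates given below, that site lies inside the gene, downstream of its other annotated start. Krt8 was above 0 in all 23 libraries, so the motif was not confined to epithelial genes near 0. The upstream stretches below are shown because they belong to 2 epithelial genes that lay near 0 in most libraries and to the repressor gene that varied most with the groups, and capitals mark the E-box letters. A match is a string of letters in the window and was not tested as a binding site.
Epcam, chr17:87635729-87635978, plus strand: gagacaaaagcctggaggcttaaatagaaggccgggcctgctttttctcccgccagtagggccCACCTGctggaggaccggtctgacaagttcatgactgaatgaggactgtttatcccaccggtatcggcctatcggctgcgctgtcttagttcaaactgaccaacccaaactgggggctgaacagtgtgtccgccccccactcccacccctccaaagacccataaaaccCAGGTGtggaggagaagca
Krt18, chr15:102027966-102028179, plus strand: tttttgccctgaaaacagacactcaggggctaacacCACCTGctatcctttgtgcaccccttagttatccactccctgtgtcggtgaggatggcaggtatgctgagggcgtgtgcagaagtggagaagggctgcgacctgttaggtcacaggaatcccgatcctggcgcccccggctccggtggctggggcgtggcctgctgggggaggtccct
Snai1, chr2:167537945-167538194, plus strand: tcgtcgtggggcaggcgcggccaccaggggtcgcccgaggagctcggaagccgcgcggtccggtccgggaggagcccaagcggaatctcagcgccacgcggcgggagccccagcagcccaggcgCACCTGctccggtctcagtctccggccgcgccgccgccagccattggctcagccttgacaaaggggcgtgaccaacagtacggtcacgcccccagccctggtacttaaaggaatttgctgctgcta
The last base of each stretch lies upstream of the annotated start. The E-boxes of Epcam began 187 and 19 bases before the RefSeq start, that of Krt18 214 and that of Snai1 126 bases before it. Of all windows 2.88% held the motif at least 2 times, as Epcam did.

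Some libraries stood apart in ways the group labels do not give. By transcripts of skeletal muscle and of the neutrophil granule gene Ngp they formed set A (9 EV libraries with little of either, muscle markers at 1.27 to 17.8 CPM against 466 or more in sets B and C, and Ngp below 5 CPM), set B (5 libraries with Ngp: EV anti-PD-L1 2, both of EV cabozantinib plus IL-27 and both of IL27v media) and set C (8 IL27v libraries with muscle transcripts only). IL27v docetaxel 1 was placed in no set, with 27.2% of its counts in 1 ribosomal RNA gene. In no ex vivo condition did both vectors share a set, so vector and set cannot be told apart within a condition, and the labels name no batch. In 3 IL27v libraries, docetaxel 1 and 2 and anti-PD-L1 1, the 12 keratinocyte markers summed to 820 to 4580 CPM, against 3.91 to 28.2 CPM in the other 20. These are called the libraries with skin transcripts. The name is a label only: 5 basal prostate markers, some of them the same genes, summed to 380 to 1760 CPM in these libraries. The source of these transcripts was not tested.

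The bulk libraries carried a mesenchymal transcript profile, of which the part from host cells such as fibroblasts was not tested. Levels are given as CPM, counts scaled to a common library size by the TMM method (1 CPM stood for 36.3 to 86.5 counts), and for comparison between genes as CPM per kb, which divides by the exon length. Vim (ENSMUSG00000026728, chromosome 2, 13573927 to 13582826 in GRCm38) lay at 3140 to 6610 CPM in the 12 EV libraries with a median of 4770, and at 2590 to 5930 CPM in the 11 IL27v libraries with a median of 4980. The vectors overlapped over nearly their whole range. Per kb, Vim ranked 27th by its mean among 21897 protein-coding genes, and between 21st and 53rd in single libraries. Its level per kb was 21.5 to 1700 times that of Krt8, with a median of 101 over the 23 libraries (34.9 to 2750 and 164 by the longest transcript).

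**Figure D1:**
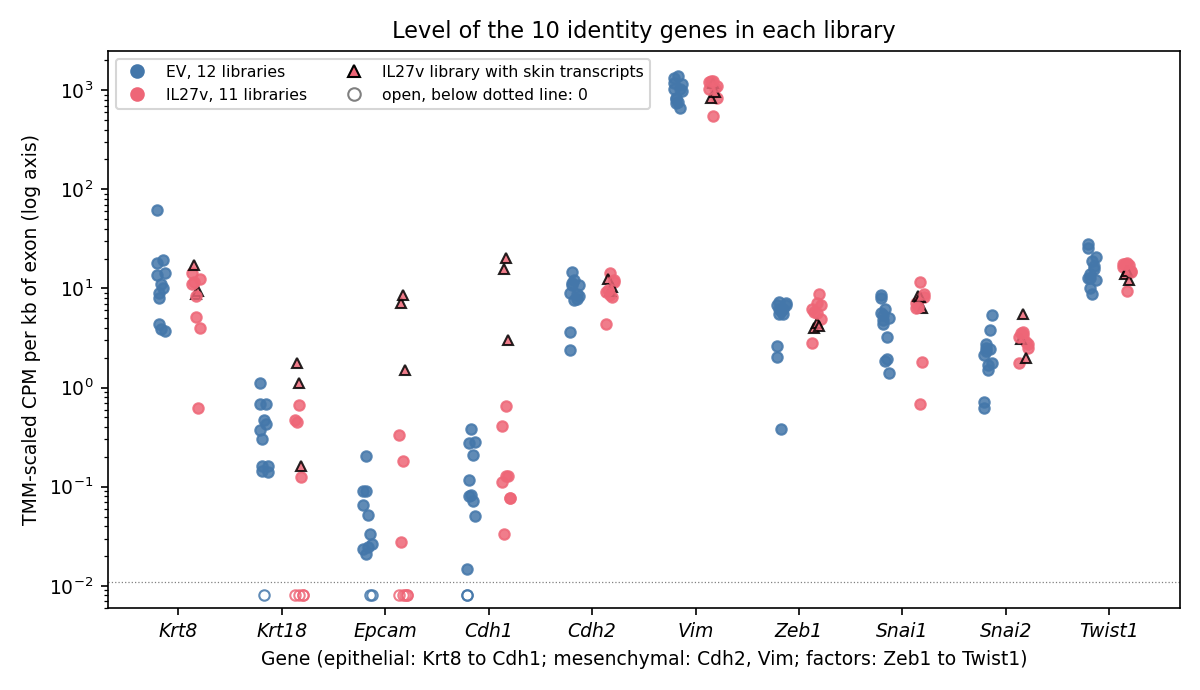
Level of each of the 10 genes in each library, as TMM-scaled CPM per kb of exon on a log axis, EV in blue and IL27v in red, with triangles for the 3 libraries with skin transcripts and open points for 0. Vim lies between 547 and 1390 CPM per kb in every library, while Epcam and Cdh1 exceed 1 CPM per kb only in the libraries with skin transcripts.

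The cadherins separated in the same direction. Cdh2 (ENSMUSG00000024304, chromosome 18, 16588877 to 16809246) lay at 19.3 to 119 CPM in EV (median 71.6) and at 35.6 to 115 CPM in IL27v (median 77.5). Cdh1 (ENSMUSG00000000303, chromosome 8, 106603351 to 106670246) lay at 0 to 1.74 CPM in EV (median 0.374), with 0 counts in 2 of the 12 libraries. It lay at 0.154 to 3.02 CPM in the 8 IL27v libraries without skin transcripts. A count of 0 allowed up to 3 counts, which is 0.035 to 0.083 CPM depending on the library and covers counting error only. In the 18 libraries without skin transcripts and with Cdh1 above 0, the level of Cdh2 per kb was 21.5 to 286 times that of Cdh1, with a median of 79.3 (34.7 to 461 and 128 by the longest transcript). In the 3 libraries with skin transcripts that ratio was 0.463 to 3.43.

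Keratins 8 and 18 encode partners that form filaments together, but their transcripts were far from equal. Krt8 (ENSMUSG00000049382, chromosome 15, 101996698 to 102004482) lay at 7.26 to 122 CPM in EV (median 20.5) and 1.21 to 33.5 CPM in IL27v (median 18.4). Krt18 (ENSMUSG00000023043, chromosome 15, 102028180 to 102032027), its neighbour on the chromosome, lay at 0 to 1.61 CPM in EV and 0 to 2.51 CPM in IL27v, with 0 counts in 5 of the 23 libraries. In the 18 libraries with Krt18 above 0, Krt8 was 4.95 to 89.1 times as high per kb, with a median of 26.4. Krt8 thus stayed above Krt18 in each of these libraries, also in the 3 with skin transcripts, where the ratio was 7.78 to 58.2. The highest Krt8 level was in EV docetaxel 2 and the lowest in IL27v media 2, where Krt8 was among 7 genes, of 7509 with a mean of at least 20 CPM, that lay below 25% of their level in every other library.

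Among the transcription factors, Twist1, a basic helix-loop-helix factor, was the highest per kb, at 8.87 to 28.1 CPM per kb with a median of 15.1. Snai1 and Zeb1 had medians of 6.23 and 5.82 CPM per kb, and Snai2 one of 2.49. The ranges of Snai1 (0.678 to 11.6) and Zeb1 (0.38 to 8.84 CPM per kb) overlapped almost wholly, so their order was not resolved. By the longest transcript in place of all exons the median of Zeb1 was 10.3 CPM per kb, above the unchanged 6.23 of Snai1, and Twist1 was still the highest at 15.1. In CPM, Zeb1 (ENSMUSG00000024238, chromosome 18, 5591860 to 5775467) lay at 3.9 to 74.5 in EV and 29.2 to 90.7 in IL27v. Its lowest value came from EV cabozantinib 1, while EV cabozantinib 2 was at 64.0 CPM. In EV cabozantinib 1, Zeb1 was 1 of 4 genes, of the 7509, that lay below 25% of their level in every other library. Snai2 (ENSMUSG00000022676, chromosome 16, 14705852 to 14709385) was at 1.26 to 10.8 CPM in EV and 3.58 to 11.1 in IL27v. Each of the 4 factor genes was above 0 in each of the 23 libraries.

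Other genes of both states, from lists chosen with earlier results of these data known, stood for the most part on the same sides. Over the 20 libraries without skin transcripts, 22 mesenchymal genes (matrix, adhesion and migration genes) summed to 4900 to 8300 CPM, and each of the 22 had a mean of at least 1 CPM. The genes named in this paragraph were picked after their values were seen. The matrix genes Sparc and Fn1 had medians of 1130 and 646 CPM there, the receptor kinase Axl 526, the hyaluronan receptor Cd44 536 and the homeobox gene Prrx1 300 CPM. Smooth muscle actin Acta2 and Tagln, markers of contractile myofibroblasts, were low, with medians of 2.76 and 2.64 CPM. The 24 further epithelial genes (tight junction, desmosome and epithelial splicing or transcription factor genes) summed to 72.1 to 224 CPM, and 8 of the 24 had a mean of at least 1 CPM. Most of that sum was Tjp1, a junction scaffold also present in many other cells, with a median of 108 CPM. The claudin genes Cldn3 and Cldn7 and the splicing factor gene Esrp1 had medians of 0 CPM. Others on the list were present: the junction gene Jup had a median of 21.2 CPM, Pkp3 3.99 and the keratin gene Krt19 2.56. Esrp2, Perp and Grhl2 had medians of 1.53, 1.15 and 1.11 CPM.

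Of the prostate origin given by the labels, few of the luminal markers named here were seen. Fkbp5, an androgen-induced gene, lay at 26.9 to 44.5 CPM in the 20 libraries without skin transcripts. Pbsn (probasin) and Msmb, secretory products of the prostate, were at 0 in all 23 libraries. Foxa1 and Hoxb13, transcription factors of luminal prostate cells, reached at most 0.114 and 0 CPM in those 20 libraries. The 5 basal markers (Trp63, Krt5, Krt14, Krt15 and Krt17) summed to 0 to 9.58 CPM there and to 380 to 1760 CPM in the libraries with skin transcripts. The 7 neuroendocrine markers summed to 1.78 to 10.7 CPM. Fibroblast markers were abundant, the 12 genes summing to 2480 to 9490 CPM in the 20 libraries, and 10 macrophage markers summed to 225 to 905 CPM. How much of Vim, Cdh2 and the factor transcripts came from these host cells was not tested.

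Epcam and Cdh1 were high where skin transcripts were high. Epcam (ENSMUSG00000045394, chromosome 17, 87635979 to 87651129) was at 15.5, 18.7 and 3.34 CPM in IL27v docetaxel 1, docetaxel 2 and anti-PD-L1 1, and Cdh1 at 71.9, 92.2 and 13.9 CPM. In the other 20 libraries Epcam reached at most 0.732 CPM, with 0 counts in 7, and Cdh1 at most 3.02 CPM. The 3 high libraries did not overlap the rest for either gene, and of all genes tested 1.74% were higher in these 3 without overlap and 0.205% lower. No other member was so separated. Their keratinocyte markers summed to 4580, 4250 and 820 CPM, and the basal keratin genes Krt5 and Krt14 lay at 116 to 410 and 204 to 960 CPM. The part of skin cells in these values was not tested. Krt8 did not follow: it lay at 17.1 to 33.5 CPM in the 3 libraries, inside the range of the others.

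**Figure D2:**
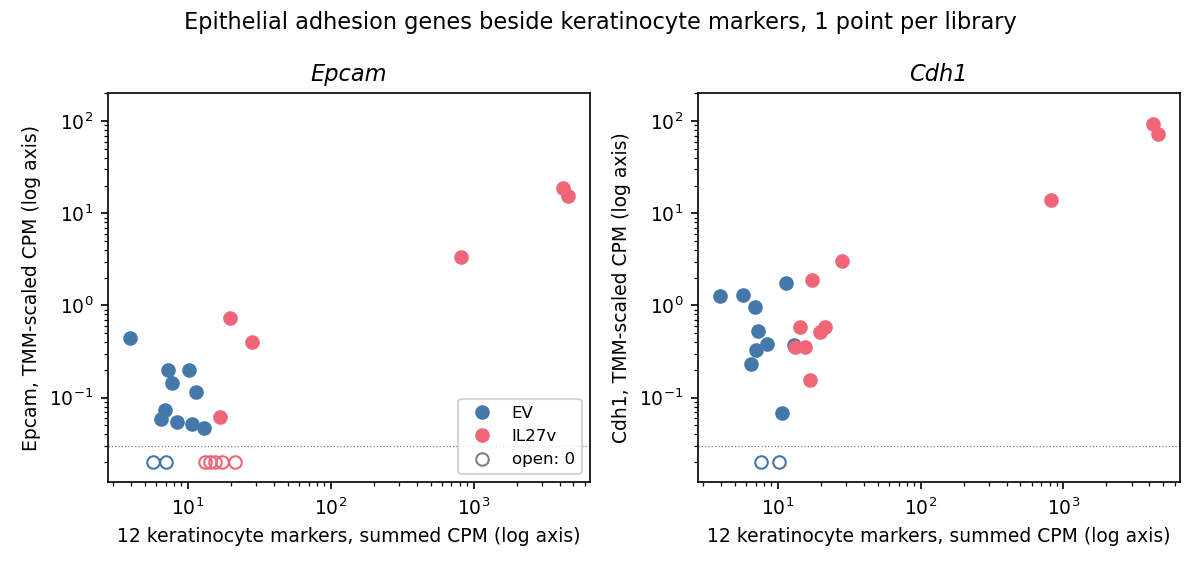
Epcam and Cdh1 (TMM-scaled CPM, log axis) against the summed CPM of 12 keratinocyte markers (log axis), 1 point per library, EV in blue, IL27v in red and open points for 0. Only the 3 IL27v libraries with keratinocyte sums from 820 to 4580 CPM have Epcam above 0.732 CPM and Cdh1 above 3.02 CPM.

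Over the 23 libraries Epcam and Cdh1 had a Pearson r of 0.96 on log2(CPM + 1), and 0.23 over the 20 libraries without skin transcripts. The genes most like them in pattern were other epithelial genes, given as a description since the libraries share their sets. For Cdh1 these were Trp63, Dsg3 and Perp (r of 0.98, 0.97 and 0.97 over 23 libraries), a basal epithelial transcription factor and 2 genes of desmosomes. For Epcam they were Grhl3, Tfap2a and Pof1b (0.99, 0.99 and 0.98). Without the 3 libraries none of these 6 was among the 3 most alike.

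A test of any difference among the 12 groups asked whether the genes varied with the design at all. It called 1 of the 10, Cdh1 (edgeR quasi-likelihood test with Benjamini-Hochberg adjustment over 24440 genes, adjusted p = 0.014), against 1.97% of all genes. Epcam and Snai1 followed at an edgeR adjusted p of 0.055 each, and Cdh2, Vim, Zeb1 and Twist1 at 0.86 to 0.98. The call of Cdh1 was lost, leaving 0 of 10, without the libraries with skin transcripts, without either of the IL27v docetaxel libraries, or without the 4 libraries low in long transcripts that are described further on. These fits also called fewer genes in all: 482 of 24440 with every library, 4 of 23574 without the libraries with skin transcripts, 103 and 190 without IL27v docetaxel 1 and 2, and 330 without the 4 libraries. In the order of the 12 group means, 0 of 11 neighbouring pairs of groups were separated without overlap for Cdh2. There was 1 of 11 for Krt18, Epcam, Vim and Zeb1, and 2 of 11 for Krt8, Snai1, Snai2 and Twist1. Cdh1, the gene called, also had only 2 of 11. Neighbours in such an order are the groups closest by mean, so overlap between them cannot show that the groups are alike. The IL27v IL-27 group has 1 library and no spread, and it was in the only separated pair of Vim and of Zeb1. The share over all genes was not computed, so these counts are a description only.

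The IL-27 vector was compared with the empty vector as the mean of the 6 differences within ex vivo conditions. None of the 10 genes was called, against 2.95% of all genes (2.28% higher and 0.671% lower in IL27v). At an unadjusted p under 0.05 there were 3 (Cdh1, Snai1 and Snai2), where 14.5% of all genes passed, and DESeq2 called 1, Cdh1. Vim had a log2 fold change of 0.06 ± 0.16 (± SE), Cdh2 0.16 ± 0.25, Zeb1 0.10 ± 0.32 and Twist1 -0.04 ± 0.17 (edgeR adjusted p = 1 for each). Krt8 had -0.57 ± 0.38 (edgeR adjusted p = 0.6). No fold is given for Epcam and Krt18, because a group held only zeros.

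Cdh1 had a log2 fold change of 2.54 ± 0.68 between the vectors (edgeR adjusted p = 0.053, DESeq2 adjusted p = 0.014). It was called by edgeR in 6 of the 23 fits that each left out 1 library (1.82 to 3.66, adjusted p = 0.025 to 0.16). Without the libraries with skin transcripts no IL27v docetaxel library was left. Over the other ex vivo conditions Cdh1 then had 0.27 ± 0.81 and was not called. The repressor genes Snai1 and Snai2 had 0.49 ± 0.21 and 0.54 ± 0.25 (edgeR adjusted p = 0.28 and 0.33). With the set of libraries as a further term in an additive model these were -0.80 ± 0.56 and -0.09 ± 0.92. There 6 of the 8 genes with a fold had the opposite sign to that given above, none of them called. That fit left out IL27v docetaxel 1, and only set B held both vectors. Its SEs were wider, with Cdh1 at 0.91 ± 3.11, so these signs were not resolved.

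**Figure D3:**
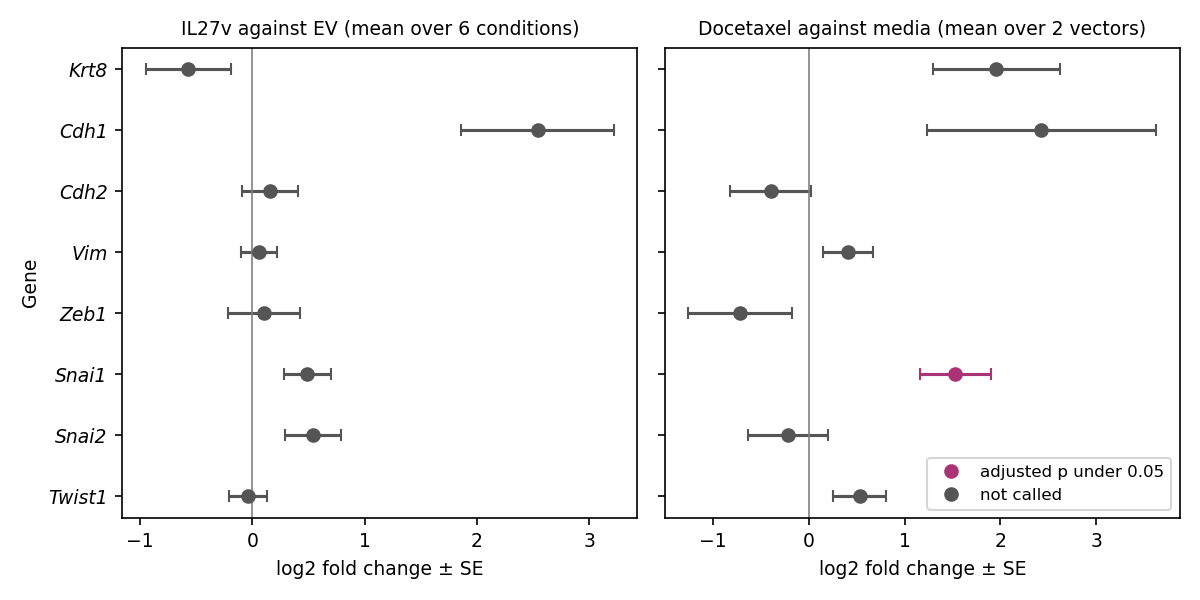
Log2 fold change ± SE of 8 of the 10 genes for IL27v against EV and for docetaxel against media, from the edgeR fit of all 23 libraries. Cdh2, Vim, Zeb1 and Twist1 lie within 1 SE of 0 between the vectors, and Snai1 at 1.53 ± 0.37 is the only gene called, for docetaxel.

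Of the 24 further epithelial genes, 4 rose in IL27v (median log2 fold change 1.5 over the 24, against 0.01 over all genes), and none fell. They were the desmosome genes Dsp (3.83 ± 0.63), Pkp3 (1.53 ± 0.36) and Perp (1.97 ± 0.49) and the epithelial protease gene St14 (4.24 ± 0.97; edgeR adjusted p from 0.004 to 0.039). Without the libraries with skin transcripts, and so over the ex vivo conditions other than docetaxel, these 4 had 1.47 ± 0.63, 0.80 ± 0.42, -0.15 ± 0.47 and 1.64 ± 1.31. The 22 that could still be tested had a median of 0.04 there, against -0.07 over all genes. Of the 22 mesenchymal genes 1 rose and 1 fell, with a median of -0.10. Twist2, a relative of Twist1, rose by 1.13 ± 0.21 (edgeR adjusted p = 0.0076), and it was called without the libraries with skin transcripts too (1.02 ± 0.21, adjusted p = 0.045). Ncam1, a neural cell adhesion gene, fell by 1.07 (SE 0.21, edgeR adjusted p = 0.0094) and was not called without the libraries with skin transcripts (-1.06 ± 0.25, adjusted p = 0.074). Of 15 genes of the TGF-beta pathway, which can induce the mesenchymal state, 1 rose and 1 fell, with a median of 0.21. Id1, an inhibitor of helix-loop-helix factors, rose by 2.06 ± 0.28 (edgeR adjusted p = 0.0013; 1.95 ± 0.34 and 0.02 without the libraries with skin transcripts), and the ligand gene Tgfb3 fell by 0.59 (SE 0.15, edgeR adjusted p = 0.039; -0.53 and 0.27 without those libraries). With the set of libraries as a term edgeR called 0 of 24046 genes between the vectors, so that each of these calls was lost. In that fit only set B held both vectors, since set A is all EV and set C all IL27v. The loss therefore cannot show whether these calls depend on the sets. Without the 4 libraries low in long transcripts Perp and Tgfb3 were not called (2.17 ± 0.65 and -0.57 ± 0.15).

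Snai1 (ENSMUSG00000042821, chromosome 2, 167538195 to 167542814) was the factor gene that varied most with the groups. In media it was at 9.13 and 7.78 CPM in the EV libraries and at 1.1 and 2.94 CPM in the IL27v libraries. With cabozantinib it was at 10.1 and 5.2 CPM in EV and 13.3 and 11.4 in IL27v, and with docetaxel at 8.13 and 13.1 in EV and 13.7 and 13.1 in IL27v. With anti-PD-L1 it was at 7.09 and 3.0 CPM in EV and 10.4 and 14.3 in IL27v. The IL27v media libraries were thus the lowest group, and the EV libraries with docetaxel overlapped those in media. With cabozantinib plus IL-27 Snai1 was at 3.13 and 2.26 CPM in EV and 10.4 and 10.6 in IL27v. With ex vivo IL-27 it was at 13.9 and 8.7 CPM in EV and 18.9 in the 1 IL27v library, the highest value of the 23.

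The low values followed the sets of libraries. Snai1 lay at 1.1 to 3.13 CPM in the 5 libraries of set B, which belong to both vectors and 3 ex vivo conditions, and at 5.2 to 18.9 CPM in the other 18, with no overlap. Of all genes tested 1.54% were lower in set B without overlap and 0.2% higher. Snai1 was the only member of the 10 so separated. The genes most like Snai1 over the 23 libraries were Ddx54, Agap3 and Rpl36 (r of 0.96, 0.96 and 0.95).

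**Figure D4:**
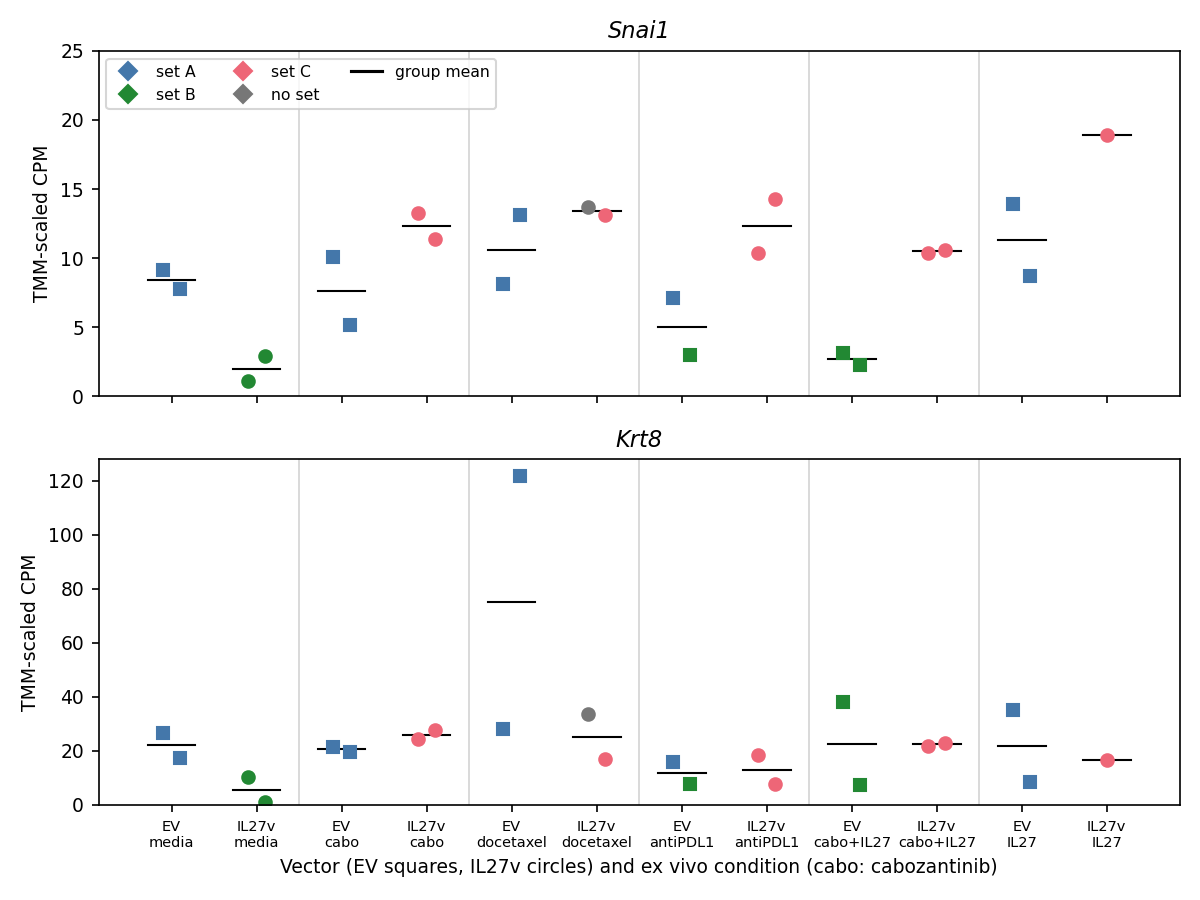
Snai1 and Krt8 (TMM-scaled CPM) in each library of the 12 groups, EV as squares and IL27v as circles, coloured by set of libraries, with a bar at the group mean. The 5 set B libraries lie at 1.1 to 3.13 CPM of Snai1 and the other 18 at 5.2 to 18.9 CPM, while Krt8 is highest in EV docetaxel 2 at 122 CPM.

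Each ex vivo exposure was set against media by averaging its difference over both vectors, and the 5 exposures share the media libraries. Docetaxel called 1 of the 10 genes, in the higher direction, against 1.79% of all genes (1.76% higher and 0.0286% lower). That was Snai1, with a log2 fold change of 1.53 ± 0.37 (edgeR adjusted p = 0.043, DESeq2 adjusted p = 0.00088), with 2 of 2 IL27v and 1 of 2 EV docetaxel libraries above both of their own media libraries. Within set A, where EV docetaxel and EV media can be compared, it was 0.33 ± 0.52 (edgeR adjusted p = 0.97). An additive fit with the sets as a term, which left out IL27v docetaxel 1, gave 0.14 ± 0.38. The additive fit of all 23 libraries without that term gave 1.01 ± 0.56. The fit without the libraries low in long transcripts gave 1.36 ± 0.37, also not called. The call was lost in 14 of the 23 fits that each left out 1 library, with values of 1.24 to 1.97 (edgeR adjusted p = 0.0098 to 0.22). It was still called without either library of EV cabozantinib, EV anti-PD-L1 or EV IL-27, and without EV docetaxel 1, IL27v media 2 or IL27v IL-27 2, and was lost without any 1 of the others. The IL27v media libraries are of set B, and both IL27v docetaxel libraries carried skin transcripts.

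Krt8 under docetaxel had 1.96 ± 0.66 (edgeR adjusted p = 0.16, DESeq2 adjusted p = 0.027). Its values were 28.2 and 122 CPM in EV docetaxel against 26.8 and 17.4 in EV media, and 33.5 and 17.1 in IL27v docetaxel against 10.2 and 1.21 in IL27v media. Each docetaxel library lay above both of its own media libraries, and EV docetaxel 2 and IL27v media 2 had the highest and the lowest Krt8 level of the study. Leaving out 1 library at a time gave 1.20 without EV docetaxel 2 and 3.06 without IL27v media 1, the ends of the range. Without the libraries low in long transcripts, which include EV docetaxel 2, it was 1.24 ± 0.68 (adjusted p = 0.42). Cdh1 and Epcam had edgeR adjusted p of 0.35 and 0.30 under docetaxel, and Vim, Cdh2, Zeb1, Snai2 and Twist1 had log2 fold changes of 0.41 ± 0.26, -0.40 ± 0.42, -0.72 ± 0.54, -0.22 ± 0.42 and 0.53 ± 0.28, none called.

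Of the 24 further epithelial genes 3 rose with docetaxel and 0 fell (median 3.31, against 0 over all genes). They were the junction genes Jup (3.23 ± 0.47) and Pkp3 (2.93 ± 0.64) and the epithelial splicing regulator gene Esrp2 (2.20 ± 0.46; edgeR adjusted p from 0.0064 to 0.029). Both IL27v docetaxel libraries carried skin transcripts. In EV libraries alone, the comparison left without them, the same 3 had 0.51 ± 0.64, 0.89 ± 0.87 and -0.40 ± 0.63, and 0 were called. That fit called 0% of all genes for docetaxel, so a lost call there is not particular to these genes. Of the 22 mesenchymal genes Twist2 alone rose (1.52 ± 0.36, edgeR adjusted p = 0.04; 0.95 ± 0.45 and 0.84 in EV alone), with a median of -0.21. Of the 15 TGF-beta pathway genes Id1 (2.82 ± 0.48) and its relative Id3 (3.30 ± 0.79) rose (edgeR adjusted p = 0.0099 and 0.044; not called in EV alone, 0.84 each), with a median of -0.17. Without the 4 libraries low in long transcripts Pkp3, Twist2 and Id3 were not called (adjusted p = 0.058, 0.15 and 0.09).

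The other exposures called none of the 10 genes, as they called 0% of all genes for cabozantinib, anti-PD-L1 and ex vivo IL-27 and 0.00409% for cabozantinib plus IL-27. By DESeq2 1 member was called for cabozantinib and 1 for ex vivo IL-27, in both cases Snai1, where DESeq2 called 295 and 619 of the 24440 genes. Its edgeR log2 fold changes were 1.23 ± 0.36 for cabozantinib (adjusted p = 0.36), 0.93 ± 0.36 for anti-PD-L1 (adjusted p = 0.73), 0.36 ± 0.36 for the combination (adjusted p = 0.9) and 1.82 ± 0.39 for ex vivo IL-27 (adjusted p = 0.19). All 4 compare with the same low IL27v media libraries. Within set A the values were -0.14 ± 0.52 for cabozantinib, -0.25 ± 0.64 for anti-PD-L1 and 0.42 ± 0.52 for ex vivo IL-27. For ex vivo IL-27 the sets as a further term gave 0.47 ± 0.39, and leaving out IL27v IL-27 2, the only library of its group, gave 0.48 ± 0.49. At an unadjusted p under 0.05 Snai1 was the only member in 3 of these 4 comparisons, and none was for the combination, where 10.5%, 5.85%, 4.47% and 11.9% of all genes passed for cabozantinib, anti-PD-L1, the combination and ex vivo IL-27. For Zeb1 under cabozantinib the log2 fold change was -1.06 ± 0.55 (edgeR adjusted p = 0.49), with EV cabozantinib 1 as its lowest library. The test of whether exposure differences depended on the vector called 0 of the 10 and 0% of all genes, and DESeq2 called 1 member. At an unadjusted p under 0.05 stood Cdh1 and Snai1 (edgeR adjusted p = 0.63 and 0.23), where 5.41% of all genes passed.

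The mesenchymal genes did not vary together. Over the 23 libraries Cdh2 had a Pearson r of -0.80 with Twist1 and -0.57 with Vim, and 0.66 and 0.48 with Snai2 and Zeb1, while Vim had 0.71 with Twist1 and 0.56 with Snai1 (log2(CPM + 1), described without a test because the libraries share sets). Libraries with more Cdh2 thus tended to hold less Vim and less Twist1.

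This division ran along the balance between long and short transcripts of a library. That balance was measured as the median log2 deviation from the gene mean over the 3100 genes with the longest transcripts (at least 4888 bases) minus that over the 3100 with the shortest (at most 2275 bases), among 12397 protein-coding genes with a mean of at least 1 CPM. It ran from -1.40 to 0.90, and was -1.40 in EV IL-27 1, -1.02 in EV docetaxel 2, -0.81 in IL27v cabozantinib 2 and -0.70 in EV cabozantinib 1, against -0.17 or more in the other 19. In those 4 libraries Cdh2 was at 19.3, 29.3, 35.6 and 61.5 CPM, below the 62.6 to 119 CPM of the others. Zeb1 was at 3.9 to 29.2 CPM there and 40.9 to 90.7 CPM elsewhere. Of all genes tested 5.64% were lower in these 4 libraries without overlap and 3.63% higher, and of the 10 members Cdh2 and Zeb1 were lower and none was higher. The longest transcript of Zeb1 has 5801 bases, and that of Cdh2, at 4843, falls just short of the long class. Vim had a median of 6040 CPM in the 4 and 4690 in the others, Twist1 36.1 and 23.9, and Snai2 2.43 and 5.62, all with overlap.

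Against this balance Cdh2 had r = 0.90 (Spearman rho = 0.70) over the 23 libraries, 0.79 without the 2 libraries farthest from the median, 0.91 within set A (n = 9) and 0.98 within set C (n = 8). Zeb1 had r = 0.69 (rho = 0.70), 0.70 in set A and 0.75 in set C. Vim had r = -0.76 (rho = -0.83), -0.81 and -0.47, and Twist1 r = -0.79 (rho = -0.75), -0.84 and -0.40. Snai1 and Krt8 had r = -0.51 and -0.56. Snai2, whose transcript of 2021 bases is short, had r = 0.57 (rho = 0.15), 0.14 without the 2 farthest libraries, 0.93 in set A and 0.23 in set C, so that its sign was that of Cdh2 and Zeb1. In set C the balance was -0.81 in IL27v cabozantinib 2 and -0.17 to 0.36 in the others, so r there leans on 1 library. IL27v cabozantinib 2 also had the highest summed macrophage markers, 905 CPM. Against these markers Cdh2 had r = -0.37 over the 23 libraries, -0.32 in set A and -0.97 in set C. Zeb1 had -0.39, -0.59 and -0.78. The parts of the balance and of macrophages in the members' levels were not tested, and the labels give only a minimum RNA integrity number of 8. The genes most like Cdh2 over the 23 libraries were Prkci, Supt16 and Smarcc1 (r = 0.97 each), and those most like Zeb1 were Tmem185a, Opa1 and Rbm12 (0.90, 0.88 and 0.87).

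**Figure D5:**
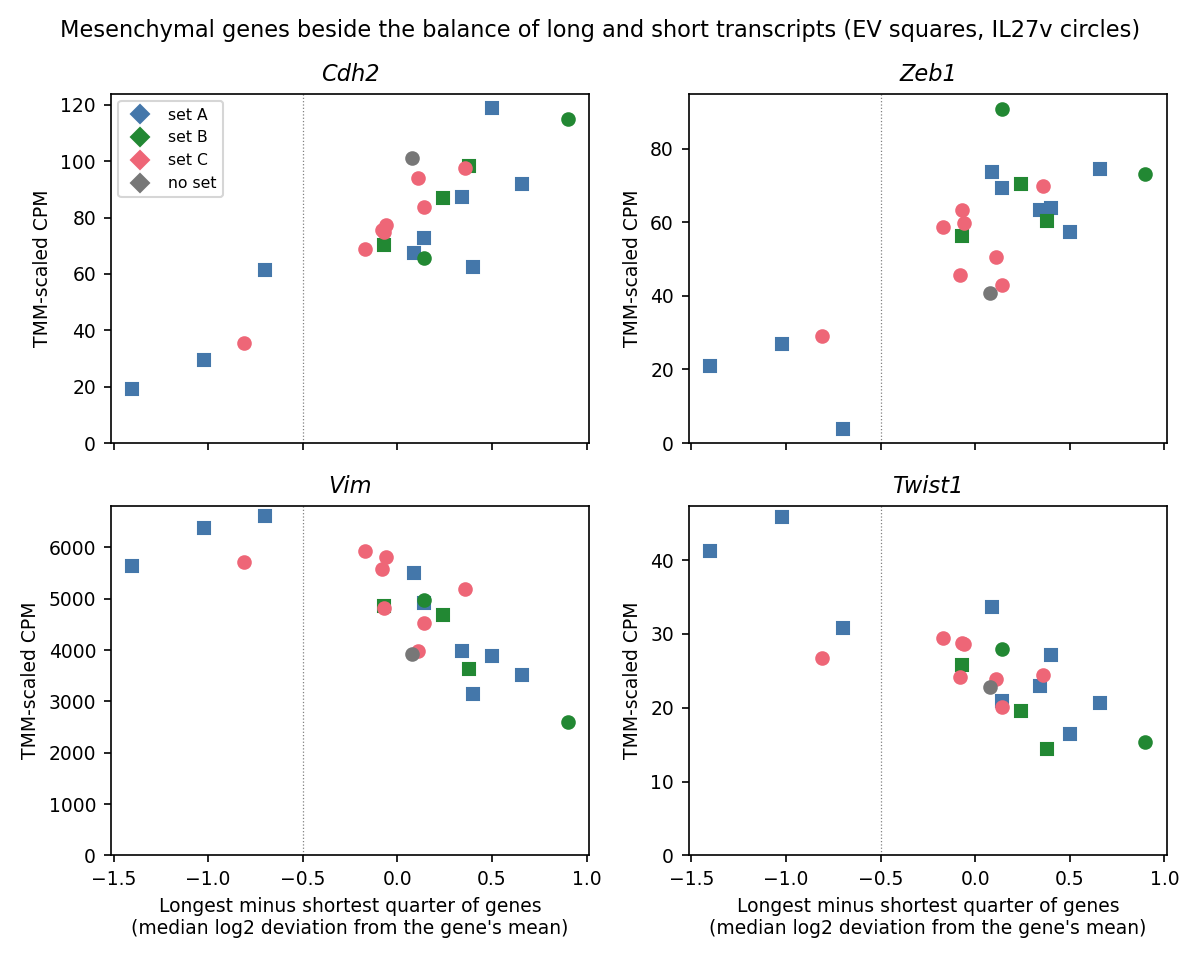
Cdh2, Zeb1, Vim and Twist1 (TMM-scaled CPM) in each library against the log2 balance of long and short transcripts, EV as squares and IL27v as circles, coloured by set of libraries. The 4 libraries left of the dotted line, at -0.70 or below, have the lowest Cdh2 and Zeb1 levels.

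Fibroblast transcripts moved less uniformly with the members. Against the summed fibroblast markers over the 23 libraries Twist1 had r = 0.48 (rho = 0.61; 0.35 in set A and 0.99 in set C), Vim 0.36 (rho = 0.37; 0.11 and 0.49), Zeb1 0.03 and Snai2 0.03, while Cdh2 had -0.31 (rho = -0.63; -0.04 and -0.35). Twist1 (ENSMUSG00000035799, chromosome 12, 33957671 to 33959829) lay at 14.4 to 45.8 CPM in EV and 15.3 to 29.4 CPM in IL27v. Its highest values, 45.8 and 41.3 CPM, came from EV docetaxel 2 and EV IL-27 1, whose fibroblast markers summed to 4980 and 3610 CPM. The genes most like Twist1 were Vkorc1, Il34 and Psrc1 (r = 0.91, 0.88 and 0.86), those most like Vim were Rps12-ps3, Slc25a4 and Gm12091 (0.89, 0.88 and 0.87), those most like Snai2 were Gm1818, Ercc5 and Cpeb3 (0.85, 0.84 and 0.80), and those most like Krt8 were Nudt14, Pear1 and Oaz2 (0.84, 0.83 and 0.83).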

How the data were processed

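The authors deposited 1 table of estimated counts for 55401 Ensembl genes and 23 libraries; values are whole numbers, with an excess of multiples of 4, so they are not plain fragment counts. The submitters' processing notes name build GRCm38 and the tools HISAT2, StringTie, cutadapt and DESeq2; the counting step, settings and versions were not given in the sources used here. Symbols, coordinates and lengths came from GENCODE mouse release M21. Genes that overlap a member reached at most 0.825 CPM; whether counting used strand was not given.

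One model with a mean for each of the 12 groups was fitted to the 23 libraries in edgeR 4.0.16 under R 4.3.3 (TMM, filterByExpr, glmQLFit and glmQLFTest, 24440 genes, 11 residual degrees of freedom, adjusted p under 0.05). Standard errors are the absolute log2 fold change over the square root of F. Levels per kb use the union of exons. The script was tested on simulated data. CPM values were computed here from the deposited counts.

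The 10 genes, the lists and the sets of libraries were chosen with earlier results of these data known. All 10 genes are named. In the comparisons, up to 4 genes of smallest p or any called gene of each other list could be named. Genes named for their levels only, such as the luminal markers, did not follow that rule. Per member with a mean of at least 1 CPM, the 3 genes of highest r are named. Alternatives were DESeq2 1.42.0, RLE factors, 2 filters, a replicate block, an additive model with or without sets, counts divided by 4, fewer libraries and the longest transcript. The fit with sets left out IL27v docetaxel 1. The set A fit and the fit without the 4 libraries low in long transcripts were added after seeing the data. Some items are not reported here.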

Additional observations from a re-analysis of the deposited data

Results flagged for a closer look

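Snai1 moved in opposite directions under the 2 vectors for a pair of exposures, with every library of the exposed group on one side of its media libraries. With anti-PD-L1 the log2 ratio of group means to media was -0.74 in EV and 2.61 in IL27v. With cabozantinib plus IL-27 it was -1.65 in EV and 2.37 in IL27v. The joint test of all exposure by vector differences had an edgeR adjusted p of 0.23 for Snai1, and these 2 differences were not tested singly. The IL27v media libraries, the EV libraries with the combination and EV anti-PD-L1 2 make up set B, in which Snai1 was 1.1 to 3.13 CPM. Group sizes of 1 and 2 allowed no check for outlying libraries within groups.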

How the results depend on the processing

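Counts of the 10 genes called moved as follows. By DESeq2 they were 3 for any difference, 1 for the vector, 1 for cabozantinib, 2 for docetaxel, 1 for ex vivo IL-27 and 1 for the interaction, where DESeq2 called 2673, 1962, 295, 1693, 619 and 635 of all 24440 genes. With no filter on low counts, over 33123 genes, they were 5, 2, 2, 4, 1 and 4 in that order, and 1 for anti-PD-L1, against 3516, 1631, 948, 1843, 1093, 1479 and 506 of all genes. With counts divided by 4 they were 3 for any difference and 1 for the vector (544 and 859 of all 18360 genes). For any difference they were 0 without the libraries with skin transcripts and 0 without those low in long transcripts. For docetaxel they were 0 with the additive model, with the set of libraries as a term, without the skin libraries, with only the compared libraries, within set A and without the libraries low in long transcripts, against 0, 0, 0, 64, 1 and 171 of all genes. Replicate numbers did not pair the libraries (r of -0.34 to 0.30 over 55 group pairs), and with a replicate block the docetaxel count was 0 and no other count changed. Leaving out 1 library gave 0 to 3 for any difference, 0 to 1 for the vector, cabozantinib and docetaxel, and 0 to 2 for ex vivo IL-27.

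The sign reversed in these cases, none of them called. For the vector with the sets as a term Cdh2 was -0.13, Vim -0.07, Zeb1 -0.01, Snai1 -0.80, Snai2 -0.09 and Twist1 0.67. Only set B held both vectors in that fit. Twist1 was 0.08 without the skin libraries. Without the libraries low in long transcripts Zeb1 was -0.15 and Twist1 0.16. Leaving out 1 library gave -0.01 to 0.47 for Cdh2, -0.03 to 0.12 for Vim (-0.02 without EV cabozantinib 2 or IL27v IL-27 2), -0.10 to 0.62 for Zeb1 (-0.04, -0.03 and -0.02 without EV docetaxel 2, EV IL-27 1 and IL27v IL-27 2) and -0.13 to 0.05 for Twist1 (0.02 without EV anti-PD-L1 1). For Snai1 the sets as a term gave -0.16 for cabozantinib and -0.14 for anti-PD-L1, and set A alone -0.14 and -0.25. The cause was not tested.

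By the longest transcript the median ratio of Vim to Krt8 per kb was 164. The r of Epcam and Cdh1 was 0.23 without the skin libraries. The RLE size factors and the filter of 1 CPM in 4 libraries left every count of called members within 1.5 times. Where a group kept 1 library, that library was assumed to vary like the other groups. With 2 libraries a group, small differences were not detectable.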
